A study of Mus musculus with 18 samples.

Results

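The genes described here encode the ligands of the tumor necrosis factor (TNF) superfamily, their receptors, and the TRAF adaptor proteins that bind the receptors inside the cell, measured by RNA-seq in the mouse heart after a single high dose of ionizing radiation (IR). Members were taken by gene symbol: symbols that begin with Tnfsf or Tnfrsf, Traf1 to Traf7, and Tnf, Lta, Ltb, Cd40, Cd27 and Ltbr. This rule gave 44 genes of 30072 in the count table, namely 15 ligands, 22 receptors and 7 adaptors. Family genes that carry other symbols, such as Fas, are described apart from them as a separate list, together with some related or similarly named genes.

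TNF ligands are mostly trimeric membrane proteins, some of them released by proteases, that cluster their receptors on a neighboring cell. Receptors with a death domain recruit TRADD or FADD and can lead to caspase activation or to necroptosis, while most of the others bind TRAF proteins directly and activate NF-kB and kinase pathways. In the heart, TNF and its receptors are known from inflammation and heart failure, and several other ligands and receptors of the family are carried mainly by lymphocytes, macrophages and dendritic cells.

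The study compared 3 groups of 6 outbred CD-1 mice, male and female and aged at least 8 weeks. Control mice were littermates that received isoflurane anesthesia and CT imaging without the radiation treatment. Mice of the 2wk and 6wk groups received 1 dose of 25 Gy to the heart after the same anesthesia and imaging. They were studied 2 weeks and 6 weeks later. The labels give no time of study for the 1 control group, so age at study cannot be told apart from time after irradiation. The labels name the intraventricular septum as the tissue where the methods of the study name ventricular tissue, and they give no sex for single mice. Each library came from 1 mouse, so P values measure the spread between mice.

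Estimated counts summed to 12202905 to 15501019 per control mouse, 12963022 to 14941625 at 2 weeks and 11522987 to 14845188 at 6 weeks, and 3 counts corresponded to 0.194 to 0.26 CPM (counts scaled to the library total) in a single mouse, a floor that covers counting error only. CPM levels were put on a common scale with TMM factors, which assume that most genes do not change, of 0.844 to 0.991 in controls, 0.962 to 1.03 at 2 weeks and 1.04 to 1.13 at 6 weeks, and were tested with edgeR's quasi-likelihood test over 15054 genes. A gene is called here when its adjusted P (Benjamini-Hochberg, over all genes tested) was under 0.05, and the value after ± is the SE of the fit for every log2 fold change. The 7 cardiomyocyte markers summed to 32641 to 49092 CPM in controls, and Cdkn1a, a p53 target that responds to irradiation, rose from a median of 6.58 CPM to 42.5 CPM at 2 weeks (adjusted P = 0.000121) and 64.8 CPM at 6 weeks (adjusted P = 1.47e-06). Both post-IR groups were compared with the same 6 controls, so the comparisons are not independent of each other.

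Ltb and Traf1 were the ligand and the adaptor of the family whose 6wk mice all lay above all controls, and the 250 bases before their RefSeq start sites (GRCm38.p6, 5′ to 3′ on the strand of the gene) are shown because TNF family genes are commonly described as NF-kB targets. The Ltb window is chr17:35194257-35194506 (plus strand) and the Traf1 window is chr2:34961773-34962022 (minus strand). Capitals mark the match to the NF-kB consensus, searched on both strands.
Ltb: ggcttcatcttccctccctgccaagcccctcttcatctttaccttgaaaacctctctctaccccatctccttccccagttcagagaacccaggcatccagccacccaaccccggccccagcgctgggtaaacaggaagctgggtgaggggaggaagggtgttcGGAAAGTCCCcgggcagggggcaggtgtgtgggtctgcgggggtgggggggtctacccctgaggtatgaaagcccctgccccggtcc
Traf1: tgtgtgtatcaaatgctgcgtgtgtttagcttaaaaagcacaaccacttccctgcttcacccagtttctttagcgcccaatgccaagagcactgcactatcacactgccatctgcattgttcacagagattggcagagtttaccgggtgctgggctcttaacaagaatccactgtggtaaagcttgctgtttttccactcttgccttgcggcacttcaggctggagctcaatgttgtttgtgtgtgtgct
The match in Ltb starts 87 bases before the start site, and the window of Traf1 holds none. RefSeq gave 41 promoters for 37 of the 44 genes, and 12.2% of these (5 of 41) held the consensus, in Ltb, Tnfrsf25, Tnfrsf8, Tnfrsf9 and Traf3, against 7.25% of all 32851 promoters. Of these 5 genes, Ltb was called at 6 weeks, Tnfrsf25 and Traf3 were tested and not called, and Tnfrsf8 and Tnfrsf9 were not tested. Among the 10 members called in any comparison that had a promoter sequence, Ltb was the 1 that held the consensus. The motif TTCNNNGAA, searched on both strands, was in 17.1% of the member promoters (7 of 41) against 7.02% of all, and GAGGAAGT was in 4.88% (2 of 41) against 2.44%. A match is a description of letters and not of binding, and these motifs were not searched outside the windows.

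Of the 44 genes, 36 reached 0.23 CPM in at least 6 mice and were tested, 10 of 15 ligands, 19 of 22 receptors and 7 of 7 adaptors. Tnfsf8, Ltb, Tnfrsf4 and Tnfrsf17 reached that level in 6 mice only when the 6wk mice were included. The other 8 were Lta, Tnfsf4, Tnfsf11, Tnfsf14, Tnfsf15, Tnfrsf8, Tnfrsf9 and Tnfrsf13c, with at most 7 counts in any mouse. Tnfsf4 (OX40 ligand) had no count in any control or 2wk mouse and 5 counts in total over the 6wk mice, which is too few for a direction.

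At 6 weeks, 12 of the 36 tested genes were higher than in controls and none was lower. These were 33.3% of the tested members, where 25% of all genes tested were called in either direction, 13.5% higher and 11.5% lower. The 12 genes were the ligands Ltb and Tnfsf8, the receptors Tnfrsf26, Tnfrsf13b, Cd40, Tnfrsf11a, Tnfrsf22, Tnfrsf12a, Tnfrsf1a and Ltbr, and the adaptors Traf1 and Traf5. An absolute log2 fold change above 1 was reached as well by 6 of them, Tnfsf8, Tnfrsf26, Tnfrsf13b, Ltb, Traf1 and Cd40, where 5.95% of all genes passed both thresholds. Tnfsf8 and Ltb passed the filter on low values only through the 6wk mice, so they had to be high there to be counted. For 5 genes, Tnfrsf26, Traf1, Ltb, Tnfrsf22 and Ltbr, every 6wk mouse lay above every control, and 9.23% of all genes had groups that did not overlap in either direction. The median log2 fold change was 0.46 over the 36 members and -0.02 over all genes tested. With scaling by library size alone, which moved the median of all genes to 0.24, 25 members were higher and none was lower, so the number of small changes depends on the scaling.

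At 2 weeks, Traf1 alone was called (2.78% of the tested members), where 5.04% of all genes were called, 3.1% higher and 1.93% lower, and 0.903% passed both thresholds. Traf1 also had a log2 fold change just above 1 at this time. Tnfrsf13b was the 1 member whose groups did not overlap at 2 weeks, against 3.24% of all genes. Their median log2 fold change at 2 weeks was 0.17. From 2 to 6 weeks, 6 members (16.7%) were higher at 6 weeks and none was lower, Tnfrsf26, Tnfsf8, Traf1, Ltb, Tnfrsf23 and Tnfrsf22, where 5.32% of all genes were called, 3.31% higher and 2.01% lower. Of these, Tnfrsf26, Tnfsf8 and Ltb passed both thresholds (1.14% of all genes), and the groups did not overlap for Tnfrsf26, Traf1, Tnfrsf23 and Tnfrsf1a (3.53% of all genes), the last of which was not called. Tnfsf8 and Ltb could be tested only because of their levels in the 6wk mice. The count between the time points depended on single mice. It was 2 genes without 2wk mouse 2, 2wk mouse 4, 6wk mouse 1 or 6wk mouse 6, 3 genes without 2wk mouse 1, 2wk mouse 6, 6wk mouse 3 or 6wk mouse 5, and 4 to 7 genes without any other mouse. With the replicate number as a block, 1, 10 and 4 members were called in the 3 comparisons, and the last of these held Cd40 in place of Tnfsf8, Tnfrsf22 and Tnfrsf23.

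**Figure D1:**
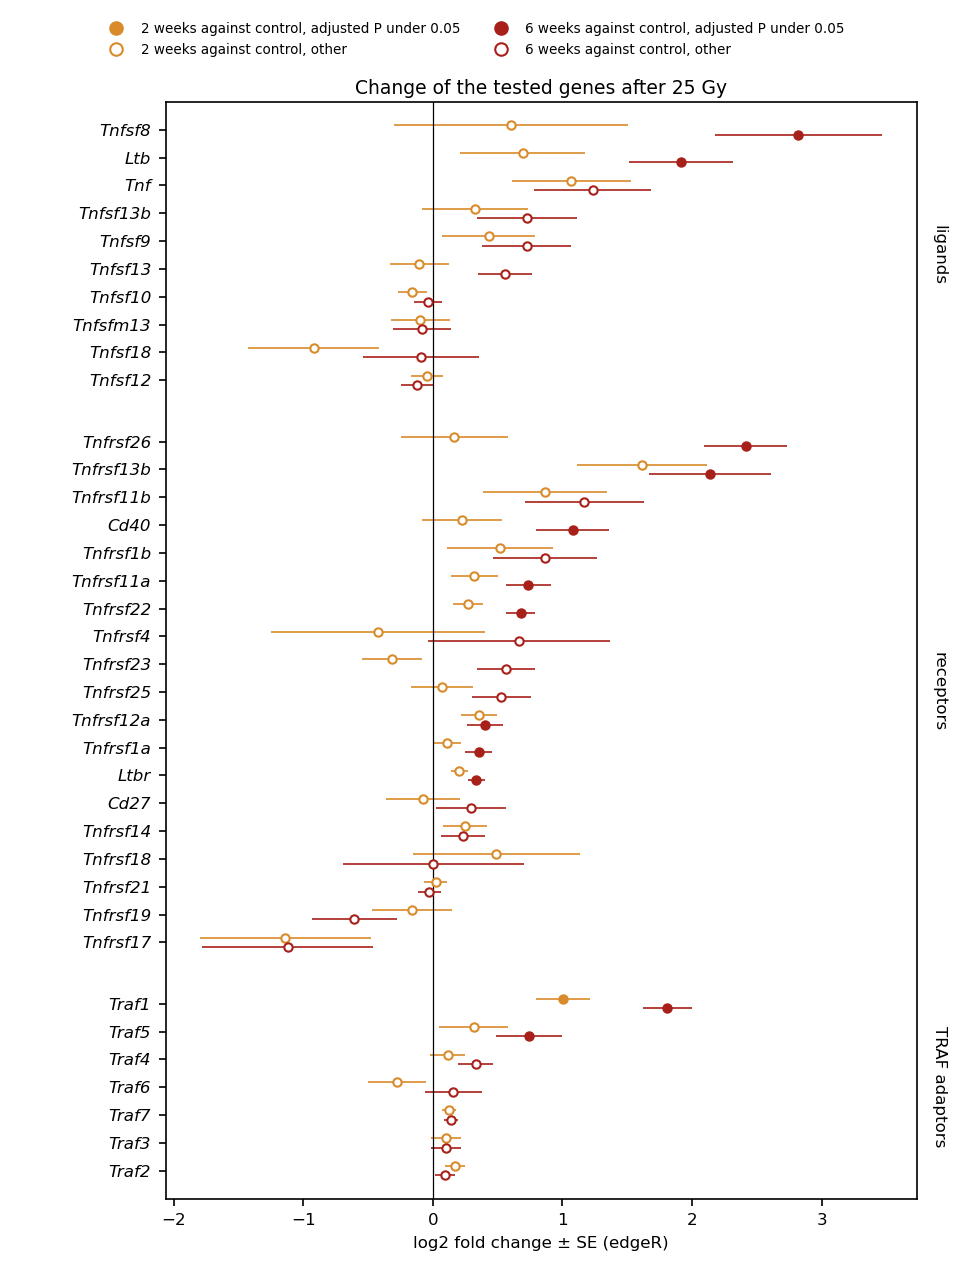
Log2 fold change with its SE (edgeR) of the 36 tested genes at 2 weeks (orange) and 6 weeks (red) against the same 6 controls, ordered within ligands, receptors and TRAF adaptors by the value at 6 weeks. Filled points have an adjusted P under 0.05, which is 1 gene at 2 weeks and 12 genes at 6 weeks, all to the right of 0.

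Among the 10 tested ligands, Ltb and Tnfsf8 were called at 6 weeks and none was called at 2 weeks. That is 20% of the tested ligands at 6 weeks, where 25% of all genes were called, 13.5% higher and 11.5% lower. The median log2 fold change of the 10 ligands was 0.64 at 6 weeks. Ltb encodes lymphotoxin beta, which anchors lymphotoxin alpha in the membrane and binds Ltbr. Ltb lay between 0.0833 and 0.454 CPM in controls (median 0.134), between 0.0802 and 0.597 CPM at 2 weeks (median 0.245) and between 0.555 and 1.01 CPM at 6 weeks (median 0.672). It was 1.91 ± 0.402 higher at 6 weeks on the log2 scale (adjusted P = 0.00147), and the 6wk mice did not overlap with the controls. Against 2 weeks the difference was 1.22 ± 0.352 (adjusted P = 0.0468), which was lost without control mice 1, 2, 3 or 6, 2wk mice 1, 2, 4 or 6, or 6wk mice 1, 3, 5 or 6 (adjusted P up to 0.104), in DESeq2, without a filter on low counts and with only the 2 groups fitted. These levels rest on few reads, 15 counts in all controls together and 63 in all 6wk mice.

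Tnfsf8 encodes CD30 ligand, carried by activated lymphocytes and myeloid cells. Its level was 0 to 0.277 CPM in controls (median 0.0378), 0 to 0.464 CPM at 2 weeks (median 0.106) and 0.222 to 1.07 CPM at 6 weeks (median 0.665), with 7, 12 and 58 counts per group. Tnfsf8 was higher at 6 weeks than in controls by 2.82 ± 0.648 (log2, adjusted P = 0.00186) and higher than at 2 weeks by 2.22 ± 0.574 (adjusted P = 0.0247), and in each comparison the lowest 6wk mice overlapped with the other group. The second of these was lost without 2wk mouse 1, 2wk mouse 2, 2wk mouse 4, 6wk mouse 1 or 6wk mouse 6 (adjusted P up to 0.0662) and with the replicate block. Both Ltb and Tnfsf8 passed the filter on low values only through the 6wk mice, so they had to be high there to be tested.

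Tnf, the founding cytokine of the family, lay between 0 and 0.680 CPM in controls (median 0.404), 0.401 and 1.25 CPM at 2 weeks (median 0.742) and 0.602 and 1.53 CPM at 6 weeks (median 0.695). Its log2 fold change was 1.07 ± 0.459 at 2 weeks (adjusted P = 0.194) and 1.23 ± 0.450 at 6 weeks (adjusted P = 0.0522), so neither difference passed the threshold and the groups overlapped. At 0 to 19 counts per mouse, the 95% interval of the fold at 6 weeks, not adjusted for the number of genes, ran from 1.28 to 4.34. Lta, which lies beside Tnf and Ltb on chromosome 17, had at most 3 counts in any mouse.

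The B cell factors Tnfsf13b and Tnfsf13, and Tnfsf12, which lies beside Tnfsf13, were not called at either time. Tnfsf13b (BAFF, a B cell survival factor) had medians of 0.369, 0.428 and 0.467 CPM in control, 2wk and 6wk mice and a log2 fold change of 0.73 ± 0.388 at 6 weeks (adjusted P = 0.190). Tnfsf13 (APRIL) had 0.983 to 2.50 CPM in controls and 1.91 to 2.84 CPM at 6 weeks, with a log2 fold change of 0.55 ± 0.209 (adjusted P = 0.0603). Tnfsf12 (TWEAK, the ligand of Tnfrsf12a) had 10.004 to 19.3 CPM in controls (median 15.4), 13.7 to 16.9 CPM at 2 weeks (median 14.1) and 11.7 to 14.7 CPM at 6 weeks (median 14.0), with log2 fold changes of -0.04 ± 0.122 and -0.12 ± 0.123 (adjusted P = 0.883 and 0.518). Tnfsfm13 is the read-through gene that joins these 2 neighbors. It shares 72.5% of its 31-base words with other genes, and Tnfsf12 and Tnfsf13 share 47.4% and 58.4% of theirs, so the division of reads among the 3 genes is uncertain.

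Tnfsf10 encodes TRAIL, a ligand of death receptors, and lay between 14.0 and 21.3 CPM in controls (median 17.2), 13.7 and 18.6 CPM at 2 weeks (median 14.7) and 12.9 and 18.5 CPM at 6 weeks (median 16.9). Its log2 fold change at 6 weeks was -0.04 ± 0.109 (adjusted P = 0.851), and the 95% interval of the fold ran from 0.840 to 1.13. Tnfsf9 (4-1BB ligand) and Tnfsf18 (GITR ligand) had log2 fold changes of 0.72 and -0.09 at 6 weeks (adjusted P = 0.138 and 0.908), and both were under 2 CPM in every mouse. Tnfsf11 (RANK ligand), the osteoclast factor, had at most 1 count in any mouse.

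Receptors made up 8 of the 12 genes called at 6 weeks, with 8 of 19 tested receptors higher, a median log2 fold change of 0.53, and none called at 2 weeks. At 6 weeks, 13.5% of all genes tested were called higher and 25% in either direction. The receptor with the smallest adjusted P was Tnfrsf26, which lies beside Tnfrsf22 and Tnfrsf23 on chromosome 7 (143607659 to 143628722, GRCm38). Tnfrsf26 had 0.417 to 1.04 CPM in controls (median 0.715), 0.392 to 1.25 CPM at 2 weeks (median 0.893) and 1.63 to 6.08 CPM at 6 weeks (median 4.45). Controls and 2wk mice overlapped, and all 6wk mice lay above both. The log2 fold change was 0.16 ± 0.413 at 2 weeks (adjusted P = 0.869), 2.41 ± 0.318 at 6 weeks (adjusted P = 3.25e-05) and 2.25 ± 0.305 between the time points (adjusted P = 0.00111). Among the 6wk mice, the counts ran from 22 to 102.

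Its neighbors Tnfrsf22 and Tnfrsf23 encode decoy receptors for TRAIL in the mouse. Tnfrsf22 had 5.86 to 9.41 CPM in controls (median 6.91), 7.44 to 10.1 CPM at 2 weeks (median 8.54) and 9.71 to 13.3 CPM at 6 weeks (median 11.4), which is a log2 fold change of 0.27 ± 0.114 at 2 weeks (adjusted P = 0.183) and 0.68 ± 0.112 at 6 weeks (adjusted P = 0.000264). Tnfrsf23 had 4.63 to 11.4 CPM in controls (median 7.09), 4.81 to 6.88 CPM at 2 weeks (median 5.98) and 6.89 to 16.5 CPM at 6 weeks (median 10.5), and it was higher at 6 weeks than at 2 weeks by 0.88 ± 0.226 (log2, adjusted P = 0.0324), with a log2 fold change of 0.56 ± 0.223 against controls that did not pass (adjusted P = 0.0742). From 2 to 6 weeks Tnfrsf22 rose by 0.40 ± 0.110 (log2, adjusted P = 0.0391). The 6wk mice lay above every control for Tnfrsf22 and above every 2wk mouse for Tnfrsf23. Without single mice the calls between the time points were lost for Tnfrsf22 without 2wk mice 2, 3, 4, 5 or 6 or 6wk mice 1, 2, 3, 5 or 6 (adjusted P up to 0.0947) and for Tnfrsf23 without 2wk mice 1, 2, 4, 5 or 6 or 6wk mice 1, 3, 5 or 6 (adjusted P up to 0.0851), and both were lost with the replicate block. That of Tnfrsf22 was lost as well in TPM and without a filter on low counts. Tnfrsf22 and Tnfrsf23 share 1033 of their 31-base words, 25.5% and 26.6% of each gene, and reads may be divided between them with error, while Tnfrsf26 shares 0.66%. All 3 overlap an antisense gene, E230032D23Rik, and whether counting used strand is not given in the sources used here.

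Tnfrsf13b encodes TACI, which binds BAFF and APRIL. It lay between 0.0756 and 0.555 CPM in controls (median 0.338), 0.587 and 1.24 CPM at 2 weeks (median 1.02) and 0.208 and 2.63 CPM at 6 weeks (median 1.34). Every 2wk mouse lay above every control, and at 6 weeks all mice except the lowest did. Its log2 fold change was 1.61 ± 0.502 at 2 weeks (adjusted P = 0.0684), which did not pass, and 2.14 ± 0.469 at 6 weeks (adjusted P = 0.00242). The other receptors of the same ligands were at low counts, with at most 7 counts in any mouse for Tnfrsf17 (BCMA) and 4 for Tnfrsf13c (BAFF receptor).

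Cd40, the receptor through which T cells stimulate antigen-presenting cells, had 0.776 to 3.45 CPM in controls (median 1.95), 1.37 to 3.16 CPM at 2 weeks (median 2.24) and 2.96 to 4.71 CPM at 6 weeks (median 4.50). The log2 fold change was 0.22 ± 0.308 at 2 weeks (adjusted P = 0.740) and 1.08 ± 0.284 at 6 weeks (adjusted P = 0.00906), and the highest control overlapped with the lowest 6wk mice. Cd40lg, its ligand, was at 0.0804 CPM or less in every mouse. Tnfrsf11a (RANK, the receptor of Tnfsf11) had 2.67 to 6.66 CPM in controls (median 4.61), 5.10 to 7.33 CPM at 2 weeks (median 5.58) and 5.39 to 10.2 CPM at 6 weeks (median 8.22), with log2 fold changes of 0.32 ± 0.181 (adjusted P = 0.337) and 0.74 ± 0.177 (adjusted P = 0.00477). Its soluble decoy Tnfrsf11b (osteoprotegerin) had medians of 0.501, 1.05 and 0.985 CPM, and its log2 fold change of 1.17 ± 0.458 at 6 weeks did not pass (adjusted P = 0.0710).

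Ltbr, Tnfrsf1a and Tnfrsf12a were among the most abundant members and changed by small amounts. Ltbr (lymphotoxin beta receptor) had 23.8 to 30.9 CPM in controls (median 28.8), 29.7 to 34.3 CPM at 2 weeks (median 31.9) and 32.9 to 38.4 CPM at 6 weeks (median 34.7). All 6wk mice lay above all controls, and the log2 fold change was 0.20 ± 0.0660 at 2 weeks (adjusted P = 0.0829) and 0.34 ± 0.0659 at 6 weeks (adjusted P = 0.00102). Tnfrsf1a, the death domain receptor of TNF, had 30.7 to 59.2 CPM in controls (median 39.5), 42.5 to 47.3 CPM at 2 weeks (median 45.4) and 47.8 to 58.5 CPM at 6 weeks (median 53.9). A single control lay above every irradiated mouse for Tnfrsf1a. Its log2 fold change was 0.11 ± 0.108 at 2 weeks (adjusted P = 0.608) and 0.35 ± 0.108 at 6 weeks (adjusted P = 0.0224), and the call at 6 weeks was lost without control mouse 6 (adjusted P = 0.0503) and with only the 2 groups fitted (adjusted P = 0.0539). Tnfrsf12a (Fn14) had 27.3 to 39.9 CPM in controls (median 35.7), 34.8 to 60.9 CPM at 2 weeks (median 42.9) and 32.4 to 57.6 CPM at 6 weeks (median 45.1), with log2 fold changes of 0.36 ± 0.140 (adjusted P = 0.152) and 0.40 ± 0.140 (adjusted P = 0.0435). The call of Tnfrsf12a was lost in 9 of 18 fits that left out 1 mouse, those without control mice 1, 2 and 4, 2wk mouse 2, and 6wk mice 1, 2, 3, 5 and 6 (adjusted P up to 0.107), and its groups overlapped. It was lost as well with the replicate block (adjusted P = 0.0506), in limma voom with sample quality weights (adjusted P = 0.0569) and without a filter on low counts (adjusted P = 0.0524).

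Tnfrsf1b, the TNF receptor without a death domain, had 1.94 to 8.46 CPM in controls (median 4.16), 3.01 to 11.4 CPM at 2 weeks (median 7.10) and 4.64 to 13.7 CPM at 6 weeks (median 9.09). Its log2 fold change of 0.87 ± 0.400 at 6 weeks had an adjusted P of 0.124 with groups that overlapped widely. Cd27, a receptor of T and B cells, had 0.517 to 0.983 CPM in controls and 0.563 to 1.28 CPM at 6 weeks, and its log2 fold change was -0.07 ± 0.285 at 2 weeks and 0.29 ± 0.272 at 6 weeks (adjusted P = 0.917 and 0.477). The remaining receptors tested, Tnfrsf4, Tnfrsf14, Tnfrsf17, Tnfrsf18, Tnfrsf19, Tnfrsf21 and Tnfrsf25, had log2 fold changes from -1.12 for Tnfrsf17 to 0.66 for Tnfrsf4 at 6 weeks, with adjusted P from 0.0986 to 0.998. Of these, Tnfrsf21 (death receptor 6) was the most tightly bounded, at 12.7 to 16.2 CPM in controls and 11.1 to 16.0 CPM at 6 weeks, with a 95% interval of the fold from 0.870 to 1.11.

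**Figure D2:**
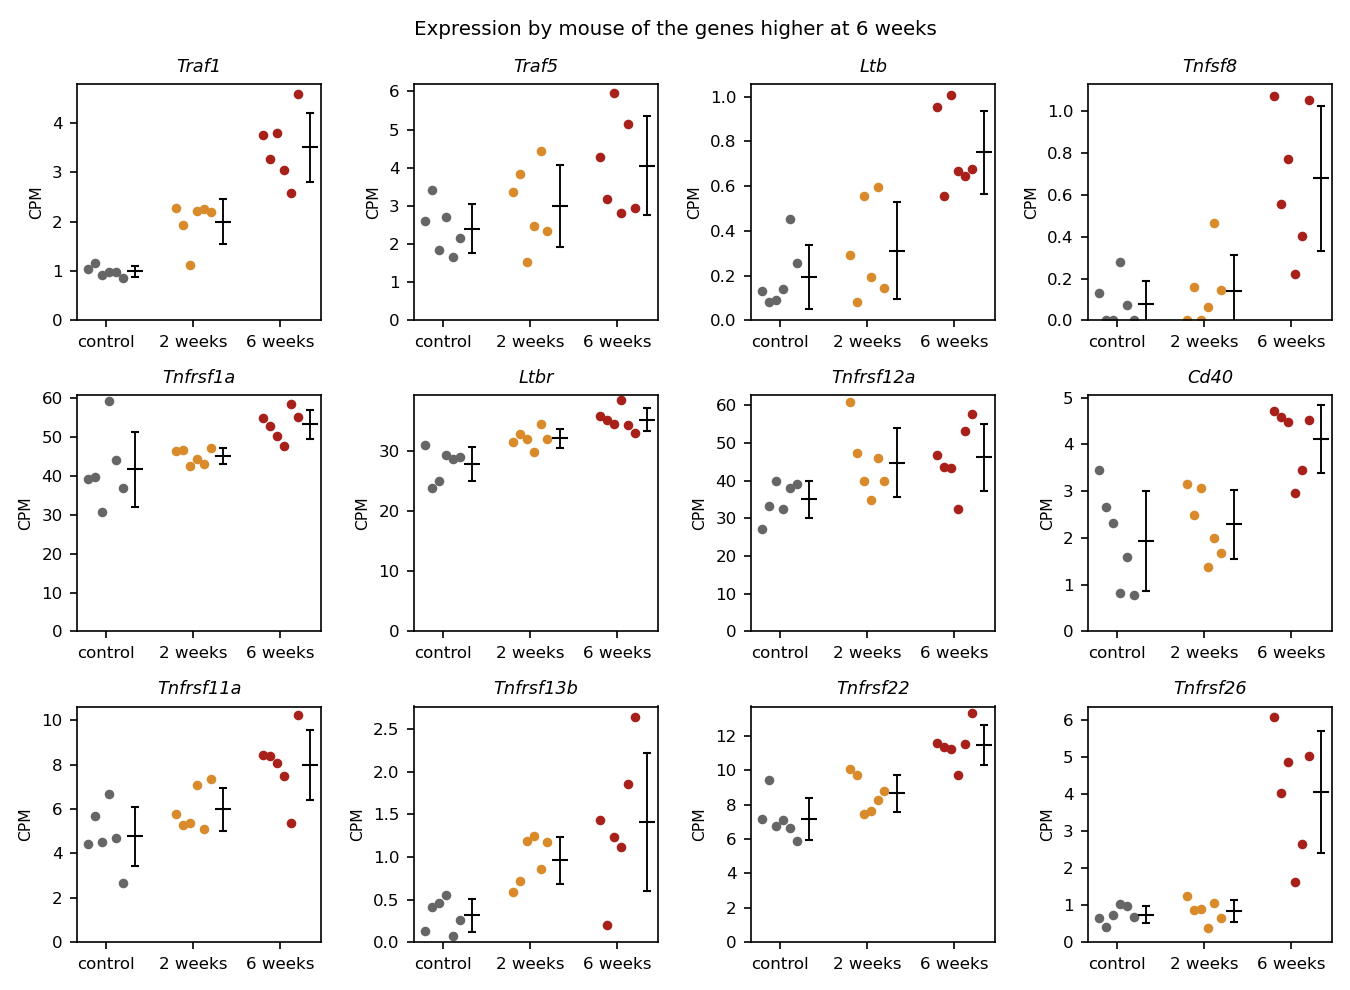
TMM-scaled CPM of the 12 genes called at 6 weeks in each of the 18 mice, with the mean and SD of each group (6 mice) beside the points, where lower ends of bars under 0 are not drawn. Traf1 steps up at both times, while Tnfrsf26 lies at 0.392 to 1.25 CPM in 2wk mice, overlapping with the controls, and at 1.63 to 6.08 CPM at 6 weeks.

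All 7 TRAF adaptors were tested, and Traf1 and Traf5 were called at 6 weeks. That is 28.6% of the adaptors, near the 25% of all genes called in either direction. Traf1, which lacks the RING domain of the other early TRAF proteins and modulates TRAF2 signaling, was the only member called in all 3 comparisons. It had 0.862 to 1.17 CPM in controls (median 0.977), 1.11 to 2.27 CPM at 2 weeks (median 2.21) and 2.57 to 4.59 CPM at 6 weeks (median 3.51). The log2 fold change was 1.0015 ± 0.208 at 2 weeks (adjusted P = 0.0103), 1.81 ± 0.192 at 6 weeks (adjusted P = 4.05e-06) and 0.81 ± 0.166 between the time points (adjusted P = 0.0124). All 6wk mice lay above all 2wk mice and all controls, and 5 of the 6 2wk mice lay above all controls. These calls were kept in all 18 fits that left out 1 mouse, with adjusted P up to 0.0267, 1.99e-05 and 0.0341. In TPM, the difference between the time points was not called.

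Traf5 had 1.66 to 3.42 CPM in controls (median 2.38), 1.53 to 4.44 CPM at 2 weeks (median 2.93) and 2.82 to 5.96 CPM at 6 weeks (median 3.74). Its log2 fold change was 0.31 ± 0.265 at 2 weeks (adjusted P = 0.541) and 0.75 ± 0.255 at 6 weeks (adjusted P = 0.0393). This call was lost without control mice 1, 3, 5 or 6 or 6wk mice 1, 3 or 5 (adjusted P up to 0.0999), with the replicate block (adjusted P = 0.0609) and in limma voom with sample quality weights, the kind of model the study used (adjusted P = 0.0530), and the groups overlapped.

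The other adaptors did not pass at either time. Traf2, the adaptor shared by most receptors of the family, had 11.6 to 15.8 CPM in controls (median 13.1), 14.1 to 16.0 CPM at 2 weeks (median 15.3) and 13.3 to 15.6 CPM at 6 weeks (median 14.4), with a log2 fold change of 0.09 ± 0.0777 at 6 weeks (adjusted P = 0.412). Traf3, a brake on noncanonical NF-kB signaling, had medians of 43.1, 44.2 and 43.0 CPM and a log2 fold change of 0.10 ± 0.113 at 6 weeks (adjusted P = 0.564). The 95% interval of the fold was 0.961 to 1.19 for Traf2 and 0.920 to 1.25 for Traf3. Traf6, which also serves Toll-like and interleukin-1 receptors, had 7.31 to 20.7 CPM in controls and 14.6 to 21.4 CPM at 6 weeks, with a log2 fold change of 0.16 ± 0.221 (adjusted P = 0.659). Traf4 and Traf7 had log2 fold changes of 0.33 ± 0.134 and 0.14 ± 0.0549 at 6 weeks (adjusted P = 0.0797 and 0.0771). At 2 weeks, Traf2, Traf3, Traf4, Traf6 and Traf7 had log2 fold changes from -0.27 for Traf6 to 0.17 for Traf2, with adjusted P from 0.195 to 0.681.

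Levels of different genes were compared in TPM, which is scaled by transcript length. In controls, Tnfrsf12a was the most abundant member, at 35.6 to 43.3 TPM (median 40.8), a range that did not overlap with that of the next gene, Traf7, at 20.4 to 31.3 TPM (median 26.8). Tnfrsf1a (median 18.8 TPM), Ltbr (12.3 TPM) and Tnfsf12 (11.6 TPM) followed, and from Traf7 downward every gene overlapped with the next in the order. Tnfsf12 was thus the most abundant ligand, and its receptor the most abundant receptor. The genes with the largest fold changes were among the scarcest, with control medians of 0.0112 TPM for Tnfsf8, 0.139 TPM for Ltb, 0.163 TPM for Tnfrsf13b, 0.281 TPM for Tnfrsf26 and 0.483 TPM for Traf1. For Tnfsf8 and Ltb this was partly set by the filter on low values, which they passed only through the 6wk mice. At 6 weeks, Tnfrsf26 had a median of 2.36 TPM and Traf1 of 2.87 TPM. In controls, 22 of the 44 genes had a median of at least 1 TPM, in 2wk mice 24 and in 6wk mice 27. TPM was not rescaled between mice, and on the log2(TPM + 1) scale the median of all genes tested lay 0.29 higher at 6 weeks than in controls, so TPM is read here within a group.

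**Figure D3:**
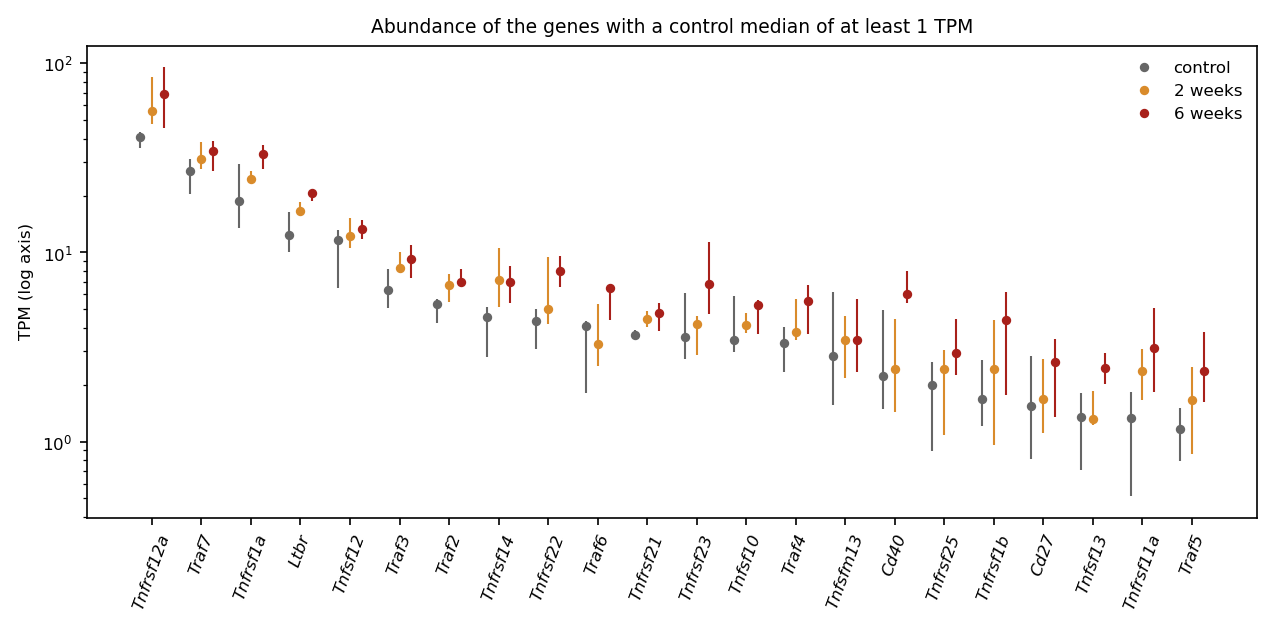
TPM on a log axis of the 22 genes with a control median of at least 1 TPM, in the order of that median, as the median (point) and the lowest to highest mouse (line) of each group of 6. Tnfrsf12a leads at a control median of 40.8 TPM, and the ranges of neighboring genes overlap from Traf7 downward.

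Several members lie side by side in the genome, and neighbors differed in their values. Tnf, Lta and Ltb stand within chr17:35194439-35205351 (GRCm38), and Ltb was called at 6 weeks where Tnf was not (adjusted P = 0.0522) and Lta was not tested. This contrast is partly set by the filter, since Ltb could be tested only because of its level in the 6wk mice. Ltb had 15 counts in all controls together and 63 in all 6wk mice. On chromosome 6, Cd27, Ltbr and Tnfrsf1a stand within chr6:125232622-125362484, where Ltbr and Tnfrsf1a rose by 0.34 and 0.35 on the log2 scale at 6 weeks and Cd27, which overlaps Vamp1 on the opposite strand, had a log2 fold change of 0.29 that did not pass. The largest difference within a cluster was on chromosome 7, where log2 fold changes at 6 weeks were 2.41 for Tnfrsf26, 0.68 for Tnfrsf22 and 0.56 for Tnfrsf23. Differences between neighboring genes were not tested.

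Read by pairs of ligand and receptor, Ltb and Ltbr were both called at 6 weeks, although Ltb could be tested only because of its level in the 6wk mice. Lta, whose protein Ltb anchors in the membrane, was not tested, with at most 3 counts in any mouse. For Tnf and Tnfrsf1a, Tnfsf12 and Tnfrsf12a, Tnfsf11 and Tnfrsf11a, Cd40lg and Cd40, and Tnfsf13b or Tnfsf13 and Tnfrsf13b, the receptor was called and the ligand was not called or not tested. Other receptors of these ligands, Tnfrsf1b, Tnfrsf11b, Tnfrsf17 and Tnfrsf13c, were not called or not tested. The contrast rests on the threshold for Tnf (1.23, adjusted P = 0.0522) and Tnfrsf1a (0.35, adjusted P = 0.0224). The calls of Tnfrsf1a and Tnfrsf12a were lost in some fits. Pairs without a called gene are left out here. For Tnfsf8, the ligand was called, and its receptor Tnfrsf8 (CD30) was not tested, with 1, 9 and 16 counts in total in control, 2wk and 6wk mice. Tnfsf10 and its decoys Tnfrsf22 and Tnfrsf23 had log2 fold changes of -0.04, 0.68 and 0.56, of which only that of Tnfrsf22 passed.

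Genes downstream of the receptors were read from lists chosen by function, with earlier results of these data known. Their counts therefore describe the lists and do not test them. Of 10 genes of death domain and caspase signaling, all tested, 7 were higher at 6 weeks and none was lower, 4 were higher at 2 weeks (Ripk1, Ripk3, Mlkl and Cflar) and 5 were higher at 6 weeks than at 2 weeks. The list had a median log2 fold change of 0.35 at 2 weeks and 0.65 at 6 weeks. The count at 6 weeks was 7 to 8 under the alternatives tried and 6 to 7 without any single mouse. These counts stand beside the 13.5% of all genes called higher at 6 weeks.

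Ripk1, the kinase at the branch between survival and death, had 11.9 to 15.5 CPM in controls (median 13.7), 16.9 to 19.6 CPM at 2 weeks (median 18.1) and 19.5 to 23.2 CPM at 6 weeks (median 22.5), with log2 fold changes of 0.40 ± 0.0800 (adjusted P = 0.00889) and 0.69 ± 0.0795 (adjusted P = 9.23e-06). Ripk3, the necroptosis kinase, had 0.833 to 1.44 CPM in controls (median 1.15), 1.44 to 2.85 CPM at 2 weeks (median 2.35) and 2.45 to 4.34 CPM at 6 weeks (median 3.35), with log2 fold changes of 0.94 ± 0.198 (adjusted P = 0.0114) and 1.55 ± 0.187 (adjusted P = 1.28e-05). Mlkl, the pore protein that Ripk3 phosphorylates, rose from a control median of 3.48 CPM to 6.45 CPM at 2 weeks (adjusted P = 0.0132) and 9.11 CPM at 6 weeks (adjusted P = 1.12e-05). For all 3 genes, no 6wk mouse overlapped with a control, where 9.23% of all genes had groups that did not overlap in either direction. Casp8, which initiates apoptosis and cleaves Ripk1 and Ripk3, rose by 0.97 ± 0.115 at 6 weeks (log2, adjusted P = 1.14e-05), and Cflar, its inhibitory relative, rose by 0.30 ± 0.0713 at 2 weeks (adjusted P = 0.0224) and 0.61 ± 0.0714 at 6 weeks (adjusted P = 1.07e-05). Tradd, the adaptor of Tnfrsf1a, rose by 0.48 at 6 weeks (log2, adjusted P = 0.0189) and Madd, a death domain protein that binds Tnfrsf1a, by 0.24 (adjusted P = 0.0168). The genes that rose thus held promoters of cell death as well as its inhibitor Cflar. Fadd, Bid and Cradd were not called, and Fadd, the adaptor between receptor and caspase 8, lay between 14.9 and 19.98 CPM in controls and between 12.9 and 19.5 CPM at 6 weeks.

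**Figure D4:**
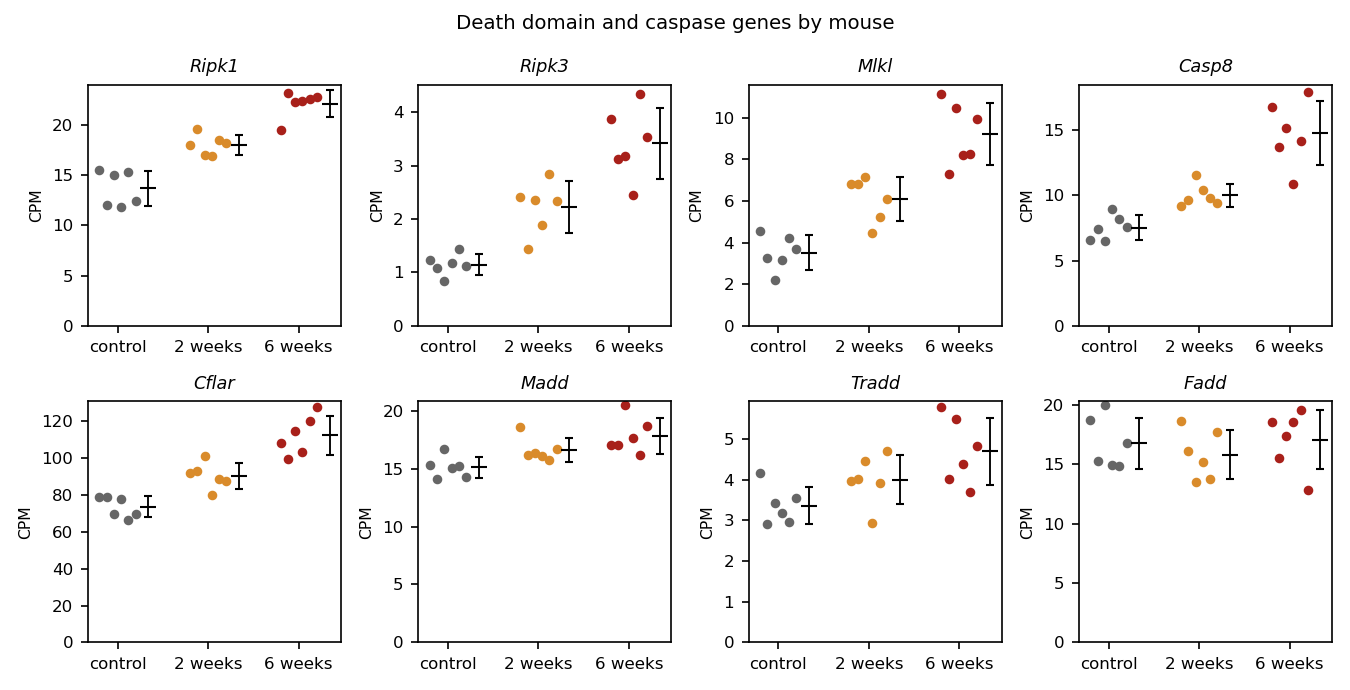
TMM-scaled CPM of 8 genes of the death domain and caspase list in each mouse, with the mean and SD of each group (6 mice). Ripk1, Ripk3, Mlkl, Casp8 and Cflar at 6 weeks lie above every control, and the groups of Fadd overlap. Of all genes, 9.23% had groups that did not overlap in either direction at 6 weeks.

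Of 16 genes of the NF-kB core, all tested, 7 were higher at 6 weeks, none was lower, and the median log2 fold change was 0.19, beside 13.5% of all genes called higher. The count was 7 to 8 under alternatives other than library size and TPM and without single mice, 13 with library size alone and 14 in TPM. The 7 were the subunits Nfkb2 (0.33, adjusted P = 0.00275), Rela (0.33, adjusted P = 0.00326) and Relb (0.45, adjusted P = 0.0120), the kinase Ikbke (0.64, adjusted P = 0.0162), and the regulators Bcl3 (0.86, adjusted P = 0.00620), Nfkbie (1.11, adjusted P = 0.0113) and Nfkbiz (0.83, adjusted P = 0.0171). At 2 weeks, Nfkb2 alone of this list was called (log2 fold change 0.31, adjusted P = 0.0192), and from 2 to 6 weeks Nfkbiz alone (0.85, adjusted P = 0.0464). Of all genes, 3.1% were called higher at 2 weeks and 3.31% between the time points. Nfkbiz had medians of 8.89, 11.4 and 16.4 CPM in control, 2wk and 6wk mice. Bcl3 had medians of 5.08, 8.04 and 9.37 CPM. The 7 genes included activators as well as inhibitors of the pathway, and Nfkbia, the classical inhibitor, had a log2 fold change of 0.10 at 6 weeks (adjusted P = 0.589).

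Of 18 TRAF partners and ubiquitin enzymes tested, 2 were higher at 6 weeks and 3 were lower, near the 13.5% and 11.5% of all genes, and none was called at 2 weeks or between the time points. Birc3 (cIAP2, a ubiquitin ligase held by TRAF2) rose by 0.37 ± 0.123 (log2, adjusted P = 0.0347) and Tnfaip3 (A20, an inhibitor of NF-kB signaling) by 0.57 ± 0.180 (adjusted P = 0.0268). Tab1, Tab3 and Cyld were lower, with log2 fold changes of -0.46, -0.23 and -0.28 (adjusted P = 0.0295, 0.0278 and 0.0470). With scaling by library size alone, these 3 values were -0.19, 0.03 and -0.01 and none was called, so Tab1 and Cyld kept their sign and Tab3 did not. Tab1 and Tab3 are partners of the kinase TAK1, and Cyld removes ubiquitin chains. The number called higher was 0 to 2 under alternatives other than library size and TPM and 0 to 3 without single mice, and it was 12 at most in TPM or with library size alone. Uev1 had no match among the gene symbols.

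The list of family genes under other symbols also held related or similarly named genes. Among these are Edaradd, Tnfaip8l2 and Tnfaip8, which are not ligands, receptors or TRAF adaptors. Of the 13 genes of this list that were tested, 3 were higher (2 to 5 under the alternatives) and 1 lower at 6 weeks. Over all genes, 13.5% were called higher and 11.5% lower. Eda2r, a receptor that p53 is known to regulate, had 2.59 to 5.40 CPM in controls, 14.4 to 25.6 CPM at 2 weeks and 20.7 to 29.8 CPM at 6 weeks, with log2 fold changes of 2.40 ± 0.167 (adjusted P = 5.78e-08) and 2.59 ± 0.167 (adjusted P = 9.72e-09). It was the 1 gene of this list called at 2 weeks, where 5.04% of all genes were called. Edaradd, an adaptor of the related receptor Edar, rose by 1.81 ± 0.558 at 6 weeks (log2, adjusted P = 0.0181) from a control median of 0.0848 CPM to 0.382 CPM, and Tnfaip8l2 by 0.78 ± 0.235 (adjusted P = 0.0200). Tnfaip8 was lower by 0.54 ± 0.110 (log2, adjusted P = 0.00138), with every 6wk mouse below every control, and by 0.28 with library size alone (adjusted P = 0.0498). Fas, the death receptor of Fasl, had a log2 fold change of 0.00 ± 0.270 at 6 weeks (adjusted P = 0.997), and Fasl, Cd40lg and Cd70 were not tested for low counts.

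Among 5 genes that govern the release of TNF ligands and receptors from the membrane, 2 were higher at 6 weeks, beside 13.5% of all genes called higher, and 4 were with library size alone and 5 in TPM. Rhbdf2 (iRhom2, which carries the sheddase ADAM17 to the cell surface) rose by 0.59 ± 0.113 at 2 weeks (log2, adjusted P = 0.00602) and 0.55 ± 0.113 at 6 weeks (adjusted P = 0.00150). The protease Adam10 rose by 0.33 ± 0.0716 at 6 weeks (log2, adjusted P = 0.00250). Adam17 itself, Rhbdf1 and the protease inhibitor Timp3 had log2 fold changes of 0.20, 0.26 and 0.10 (adjusted P = 0.534, 0.328 and 0.625).

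In bulk RNA, more cells of a type and more RNA per cell cannot be told apart, so the markers of cell types in the same libraries are given beside these results. Counts of called markers at 6 weeks, here and below, stand beside 13.5% of all genes called higher and 11.5% lower. The 8 macrophage markers summed to 105.7 to 266.2 CPM in controls (median 146.9), 183.5 to 238.2 CPM at 2 weeks (median 210.8) and 248.9 to 351.9 CPM at 6 weeks (median 272.4), and 7 of them were higher at 6 weeks. The 7 T and NK cell markers summed to 0.463 to 1.69 CPM in controls, 0.806 to 2.39 CPM at 2 weeks and 2.30 to 4.18 CPM at 6 weeks, with 2 of 4 tested markers higher at 6 weeks. The groups of controls and 6wk mice did not overlap for the T and NK cell sum. Of 4 tested B cell markers 2 were higher at 6 weeks, and the sum of the 5 markers was 0.517 to 1.25 CPM in controls, 0.327 to 3.58 CPM at 2 weeks and 1.21 to 3.33 CPM at 6 weeks. Of 4 dendritic cell markers 3 were higher, Itgax (median 0.368 CPM in controls and 3.63 CPM at 6 weeks), Flt3 (0.0703 and 0.632 CPM) and Xcr1 (0.636 and 1.51 CPM). Most of their sum, 28.3 to 36.8 CPM in controls and 35.5 to 46.6 CPM at 6 weeks, was Zbtb46, with medians of 31.5 and 31.3 CPM. No marker of these 4 lists was at 0 in all mice of a group, although Ms4a1, which defines B cells, had at most 1 count in any control. The cardiomyocyte sum was 26886 to 35196 CPM at 6 weeks, with all 7 markers lower than in controls, of which Actc1 and Ryr2 were still called with scaling by library size alone.

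The other cell types moved less or in part. Of 6 endothelial markers 2 were higher and 2 lower at 6 weeks, 1 of 6 fibroblast markers was lower, 1 of 3 tested neutrophil markers and 1 of 2 tested mast cell markers were higher, and none was called among 4 atrial myocyte, 5 smooth muscle and pericyte, 3 adipocyte, 3 erythroid and 1 tested thymus markers. In controls, 3 of 4 thymus markers were at 0 in every mouse. The share of counts from mitochondrially encoded genes was 19.8 to 25.0% in controls, 17.8 to 20.6% at 2 weeks and 16.5 to 20.05% at 6 weeks. Hbb-bs, a hemoglobin gene of red blood cells, was at 211 and 289 CPM in control mice 5 and 6, at 1.69 to 3.33 CPM in the other controls and at 0.402 to 82.5 CPM in irradiated mice. The part of the immune and cardiomyocyte markers, the mitochondrial share and blood in the results for Ltb, Tnfsf8, Tnfrsf13b, Cd40, Tnfrsf26, Traf1 and the other genes called was not tested.

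**Figure D5:**
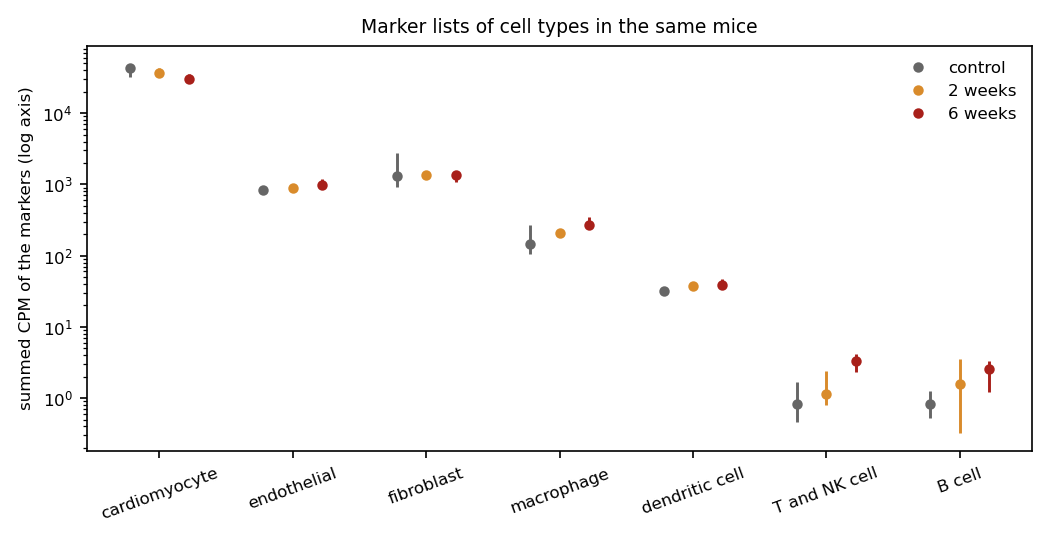
Summed TMM-scaled CPM of 7 marker lists on a log axis, as the median (point) and the lowest to highest mouse (line) of each group of 6. The cardiomyocyte sum falls from a median of 42809 CPM in controls to 30523 CPM at 6 weeks, and the T and NK cell sum rises from 0.826 to 3.34 CPM.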

How the data were processed

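RNA of 18 CD-1 mice (6 per group) was sequenced singly. After STAR alignment the authors estimated transcript abundance with Salmon (1.0 in the submitters' notes) and combined it by gene, and the deposited estimated counts carry no normalization between mice. The deposited TPM values carry the authors' scaling by transcript length and were used for levels and as an alternative.

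Estimated counts were rounded and analyzed with edgeR 4.0.16 (R 4.3.3). A gene was tested if 6 or more mice reached 0.23 CPM, libraries were TMM-scaled, and 1 quasi-likelihood fit of the 3 groups gave the contrasts (two-sided F test, Benjamini-Hochberg over all 15054 genes). An SE is the absolute log2 fold change divided by the square root of F, and intervals of a fold are 95%. The test was tried on simulated counts of known change. The study used limma with sample weights, which was an alternative (limma 3.58.1), as were DESeq2 1.42.0, other scalings and filters, TPM with pseudocounts 1 and 0.1, thresholds, a covariate for Y-linked expression, a replicate block, and fits that left out 1 mouse in turn.

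The members, the function lists and the marker lists were chosen with earlier results of these data known. Full values are given for every member called in any comparison and for a set of members chosen by role, and lists name up to 8 genes with the smallest adjusted P at 6 weeks, to which Fas, Fadd, Nfkbia and a few genes that were not called were added after their values were seen. Promoters are RefSeq's (GRCm38.p6), and genes are placed by GENCODE M21 on GRCm38. One gene that the symbol rule would take and a few genes of the function lists are not reported here.

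Deviations from the group mean had a median correlation of 0.033 over 18 pairs of same-numbered mice of different groups, 2 of them over 0.1. For pairs with different numbers it was -0.0154 over 90 pairs, 9 of them over 0.1. The numbers have no stated pairing and were not treated as pairs. Shared litters cannot be told from these values.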

Additional observations from a re-analysis of the deposited data

Results flagged for a closer look

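In 108 groups of 6 mice (36 genes in 3 groups), 8 had a highest or lowest mouse that stood apart from the rest by Dixon's test at the 95% level, where chance alone gives about 1 in 20. In controls these were a high mouse for Tnfrsf22 (9.41 CPM) and a low mouse for Traf6 (7.31 CPM). At 2 weeks they were a low mouse for Traf1 (1.11 CPM) and high mice for Tnfsf8 (0.464 CPM), Tnfsf10 (18.6 CPM), Tnfsf18 (0.556 CPM) and Tnfsf12 (16.9 CPM), and at 6 weeks a low mouse for Tnfsf12 (11.7 CPM).

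The change against controls differed between 6 and 2 weeks for 6 genes, tested as the contrast of the 2 irradiated groups in edgeR. The log2 difference was 2.25 for Tnfrsf26, 2.22 for Tnfsf8, 1.22 for Ltb, 0.88 for Tnfrsf23, 0.81 for Traf1 and 0.40 for Tnfrsf22, each higher at 6 weeks. Tnfsf8 and Ltb could be tested only because of their levels in the 6wk mice. In this contrast 5.32% of all genes were called, 3.31% higher and 2.01% lower. Tnfrsf26 and Traf1 passed in all 18 fits that left out 1 mouse, and the other 4 did not.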

How the results depend on the processing

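Of the 12 genes called at 6 weeks, Tnfrsf26, Traf1, Tnfrsf13b, Tnfrsf22, Cd40, Tnfrsf11a and Ltbr were called in all 12 alternative fits. These genes were also called in all 18 fits that left out 1 mouse. Ltb and Tnfsf8 were called in those 18 fits and in the 11 alternative fits that tested them. A filter that drops genes under 0.23 CPM in 6 or more mice left both untested. The number of members called at 2 weeks was 1, and it was 3 with DESeq2, 7 with library size only, 9 with either TPM pseudocount, 2 with Y-linked expression as a covariate, 2 with only the 2 groups compared and 3 at an adjusted P under 0.10. At 6 weeks the 12 became 25 with library size only, 28 with either TPM pseudocount, 6 with an absolute log2 fold change above 1 as well and 19 at an adjusted P under 0.10, and between the time points the 6 became 3 with the fold threshold. Over all genes, 11.9% were called at 2 weeks and 38.6% at 6 weeks with library size only, and 18.7 to 20.1% and 49.6% in TPM. Leaving out 1 mouse gave 1 to 2, 10 to 15 and 2 to 7 members. With the replicate block, 1, 10 and 4 members were called, and the losses were Tnfrsf12a and Traf5 at 6 weeks and Tnfrsf22, Tnfrsf23 and Tnfsf8 between the time points, where Cd40 was gained. Mouse numbers were shared without a stated pairing, and 3 of 18 mice correlated best with a mouse of their own number.

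Library size alone shifted the median of all genes by 0.15, 0.24 and 0.11 (log2, at 2 weeks, at 6 weeks and between them), and 95.4%, 94.4% and 91.3% of all calls were then higher, against 467 of 758, 2028 of 3759 and 498 of 801 with TMM. Alternatives for the function lists were chosen after seeing the data. Ltb and Tnfsf8 rest on a few counts per mouse. The cause of these dependences was not tested.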
